A study of Sus scrofa with 9 samples.

Results

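Endothelial transcription factors and their cofactors were followed in endothelial cells of the pig coronary artery, the cells that line the vessels feeding the heart. Of 10 listed genes, the platform annotation gave a probe set of its own to 5: ERG, ETS2, GATA2, LMO2 and FOXO1. They are 5 of the 6765 genes that the annotation names, and they had 9 of the 23999 probe sets that are not controls. No probe set carried the symbol of ETS1, TAL1, SOX17, SOX18 or MEF2C, and these genes were not analysed here. All 9 probe sets passed the filter on dim signals. The genes were listed by name, with earlier results of these data known.

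RNA of 9 samples was hybridised to 9 Affymetrix porcine arrays in 3 groups of 3. Passage 4 cells came from serial weekly passaging in vitro, and the labels call them senescent. Regenerated cells had grown back in the living artery once its endothelium had been taken off, and were then scraped off and cultured with no further passage. Passage 1 cells, the controls, had been cultured for 1 week. Every group consisted of primary cells collected in the basal state, and no strain, age or sex of the pigs is given in the labels. Whether the arrays of a group come from different pigs or cultures is not stated in the labels, so a p-value here reflects the spread among these arrays, and that spread may be technical. RNA input for labelling was 1 ug at passage 4 and passage 1 and 0.5 to 1 ug for regenerated cells, and cannot be told apart from the group.

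ERG and ETS2 belong to the ETS family, whose members bind GGA-centred sites found in the control regions of most endothelial genes. ERG is best known for keeping up endothelial genes such as CDH5, and ETS2 for answering to MAP kinase signalling. GATA2 is a zinc finger factor of blood and endothelial cells. LMO2 does not bind DNA itself: it is a LIM-domain bridge that joins TAL1, GATA factors and LDB1 into a complex. FOXO1 is a forkhead factor that AKT keeps out of the nucleus when growth factors are present, and that is tied to endothelial quiescence. The arrays measure transcripts, and in RNA of a whole culture fewer cells of a type and less RNA per cell cannot be told apart.

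The labelled cell type was checked against endothelial markers. Of 12 markers with a probe set, 10 were above the 40th percentile of their array in 9 of 9 arrays, among them the adhesion genes CDH5 and PECAM1. VWF was above it in 2 arrays and KDR in 0. Endothelial sums ran from 26189 to 26864 at passage 4, from 24116 to 35564 in regenerated cells and from 27219 to 32665 at passage 1. Of 10 tested endothelial markers 8 were lower at passage 4 than at passage 1 (median log2 difference -0.34). In regenerated against passage 1 cells 8 of 10 were lower (median -0.21). The medians of all tested probe sets were 0.04 and -0.01. The part of the endothelial sum in the results below was not tested. Leukocyte markers were above it in 2 or fewer arrays for 10 of 12 genes, with PTPRC, the pan-leukocyte gene, in 0. The summed leukocyte signal ran from 4682 to 5838 at passage 4, from 6353 to 7332 in regenerated cells and from 5277 to 7071 at passage 1, and most of it was LAPTM5. Of 10 smooth muscle markers 7 were above the percentile in every array, with sums from 33890 to 56353, from 50209 to 73232 and from 31660 to 55128 in the same order of groups. Fibroblast markers summed to between 6881 and 11123 at passage 4, 5050 and 5811 in regenerated cells, and 2328 and 3977 at passage 1, and 2 of 10 were above the percentile in every array. POSTN, for the matrix protein periostin, made up most of the fibroblast sum at passage 4. Bacterial spike-in transcripts divided the arrays into 2 kinds by how far the labelled product reached the 5' end. Their log2 difference of 5' and 3' signal ran from -2.09 to -1.77 in the 3 passage 4 arrays and passage 1 array 1. It ran from -5.19 to -4.25 in the 3 regenerated arrays and passage 1 arrays 2 and 3. With these kinds fitted as a block, the model compares passage 4 with passage 1 array 1 alone, and regenerated cells with passage 1 arrays 2 and 3, and its values stand beside the results that it changes. Passage 4 and regenerated arrays differ in kind throughout, so their comparison cannot be told apart from labelling kind. Its blocked value rests on passage 1 array 1 set against passage 1 arrays 2 and 3.

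LMO2 and ETS2 transcripts fell at passage 4, FOXO1 transcripts rose in regenerated cells, and no difference in ERG or GATA2 passed the threshold in any comparison. Of the 5 genes, taken by their brightest probe set, 2 fell and 0 rose between passage 4 and passage 1, while 2.08% of the 15299 tested probe sets fell and 2.71% rose. In regenerated against passage 1 cells 1 of 5 rose and 0 fell, where 2.98% of tested probe sets rose and 2.51% fell. At passage 4 against regenerated cells 2 of 5, ETS2 and FOXO1, were lower and 0 higher, where 4.35% of tested probe sets were lower and 8.14% higher. The direction of calls over all probe sets depended on scaling. Centring arrays on their medians put 299 of 754 calls higher at passage 4 than at passage 1, in place of 415 of 733, and 1025 of 1959 higher than in regenerated cells, in place of 1246 of 1912. In regenerated against passage 1 cells it put 406 of 857 higher, in place of 456 of 840. The comparisons with passage 1 share the same 3 control arrays. The threshold was an adjusted p under 0.05 in limma with Benjamini-Hochberg adjustment over all tested probe sets. Differences are on the scale of log2(signal + 16).

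**Figure D1:**
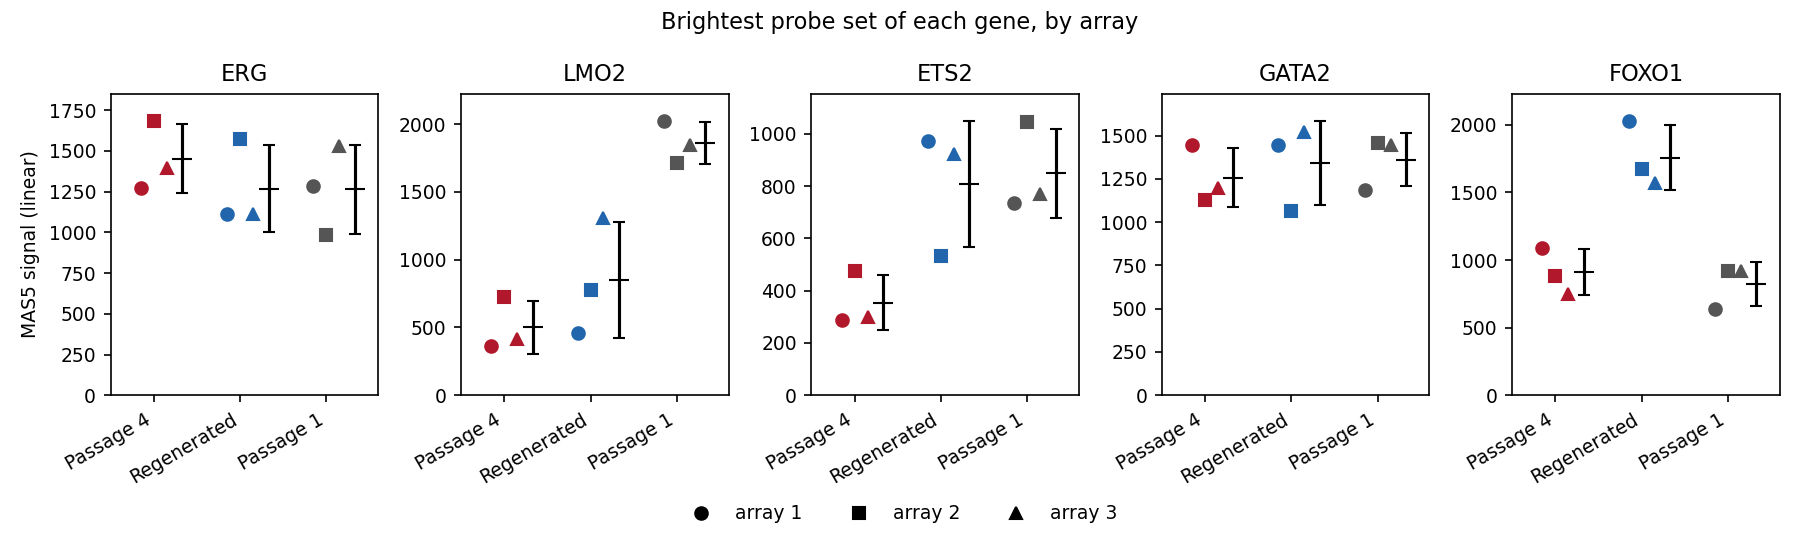
MAS5 signal (linear axis from 0) of the brightest probe set of each gene in the 3 passage 4, 3 regenerated and 3 passage 1 arrays. Symbols mark arrays 1 to 3 of a group, and black bars the mean with its SD. For LMO2 the passage 4 arrays lie between 360 and 727 and the passage 1 arrays between 1714 and 2024, and for FOXO1 the regenerated arrays lie between 1570 and 2029, above all others.

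ERG, the ETS factor most used as an endothelial nuclear marker, was measured by 1 probe set. Its signals were 1271, 1684 and 1398 at passage 4, 1111, 1576 and 1115 in regenerated cells, and 1283, 984 and 1531 at passage 1. The 3 groups overlapped, and the spread within each covered the differences between them. The log2 difference was 0.21 for passage 4 against passage 1 (95% interval -0.26 to 0.68, limma adjusted p = 0.662). It was 0.00 for regenerated against passage 1 cells (-0.47 to 0.48, adjusted p = 0.994). At passage 4 against regenerated cells it was 0.20 (-0.27 to 0.67, adjusted p = 0.581). A p above the threshold does not show equal levels, but these intervals leave out a change of ERG by 1 log2 unit in either direction. With the kind of labelling as a block they were wider, from -0.51 to 0.84 at passage 4 and from -0.51 to 0.56 in regenerated cells against passage 1. The blocked interval for passage 4 against regenerated cells ran from -0.72 to 1.01, which does hold such a change.

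ETS2, the MAP kinase-responsive member of the family, was measured by 3 probe sets. The brightest had 289, 475 and 298 at passage 4, 971, 532 and 923 in regenerated cells, and 734, 1044 and 769 at passage 1. All 3 passage 4 arrays were below every array of the other groups, while regenerated and passage 1 arrays overlapped. The passage 4 mean was 354 ± 105, the regenerated mean 808 ± 241 and the passage 1 mean 849 ± 170 (SD, n = 3 each). ETS2 fell at passage 4 by 1.24 on the log2 scale against passage 1, a 2.37-fold difference (SE 0.28, limma adjusted p = 0.0292). It was also lower at passage 4 than in regenerated cells, at -1.14 (SE 0.28, adjusted p = 0.0211). The regenerated against passage 1 difference was -0.10 (95% interval -0.71 to 0.51, adjusted p = 0.871).

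The other ETS2 probe sets also had their lowest mean at passage 4. On the second the signals were 260, 358 and 168 at passage 4, 530, 413 and 603 in regenerated cells, and 425, 517 and 487 at passage 1. There, too, passage 4 was below both other groups in every array. Its difference at passage 4 was -0.88 against passage 1, which did not pass (adjusted p = 0.0888), and -0.98 against regenerated cells, which did (adjusted p = 0.0343). On the third the signals were 110, 148 and 98.0 at passage 4, 223, 138 and 216 in regenerated cells, and 272, 249 and 264 at passage 1. Passage 4 arrays were below all passage 1 arrays and overlapped regenerated ones. This probe set fell at passage 4 against passage 1 (-1.06, adjusted p = 0.0362), and its difference from regenerated cells, -0.62, did not pass (adjusted p = 0.129). It also placed all 3 regenerated arrays below the passage 1 arrays, at a log2 difference of -0.44 that did not pass (adjusted p = 0.336). All 3 probe sets were thus lower at passage 4 than at passage 1, 2 of them past the threshold, and on each of the 3 regenerated array 2 was the lowest regenerated array and passage 4 array 2 the highest of its group.

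The ETS2 fall depended on single arrays. On the brightest probe set its adjusted p against passage 1 was 0.122 without passage 1 array 2, 0.0555 without passage 1 array 3, 0.108 without passage 4 array 1 and 0.117 without passage 4 array 3, at log2 differences between -1.31 and -1.09. Against regenerated cells the adjusted p was 0.081 and 0.0816 without passage 4 arrays 1 or 3, and 0.0519 and 0.0897 without regenerated arrays 1 or 3, at differences between -1.04 and -0.99. With the kind of labelling as a block the differences of the brightest probe set were -1.06 against passage 1 (adjusted p = 0.275) and -0.86 against regenerated cells (adjusted p = 0.386), and neither passed. With the replicate number as a block the fall against passage 1 had an adjusted p of 0.06. The third probe set kept its call against passage 1 in 10 of 18 alternatives, and the second its call against regenerated cells in 12 of 19.

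**Figure D2:**
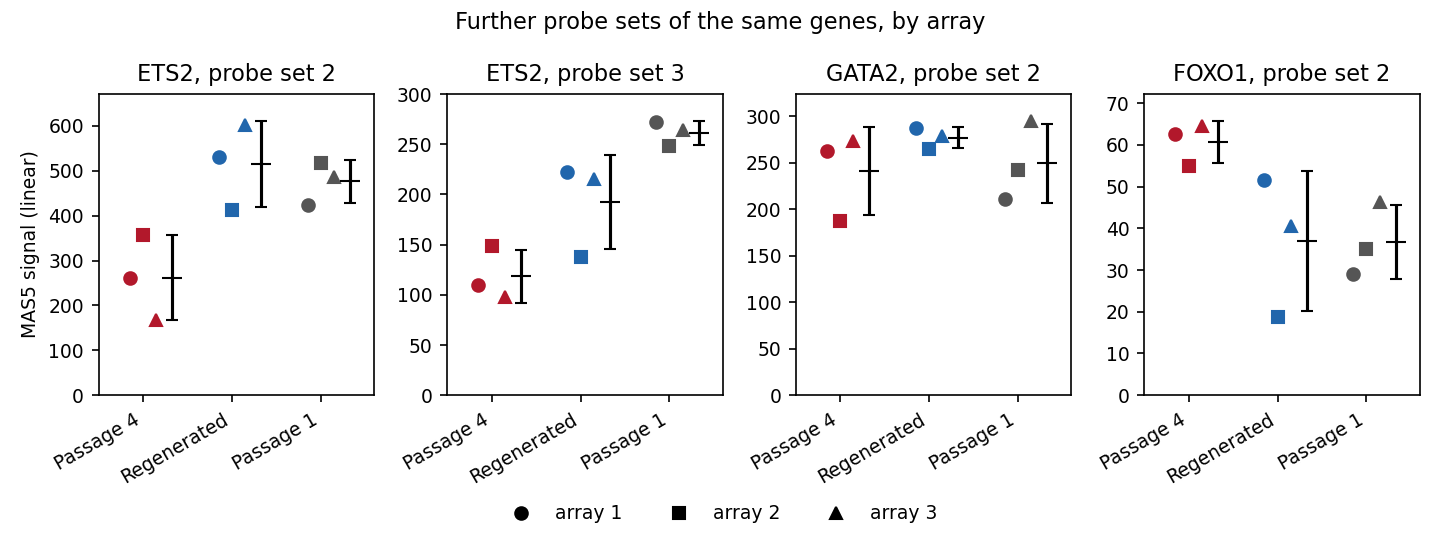
MAS5 signal (linear axis from 0) of the further probe sets of ETS2, GATA2 and FOXO1 in the 3 passage 4, 3 regenerated and 3 passage 1 arrays, with symbols for arrays 1 to 3 and black bars for the mean and its SD. Both ETS2 probe sets have their passage 4 mean lowest, at 262 and 119, and the second FOXO1 probe set stays under 65 in every array.

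GATA2, the zinc finger factor of the LMO2 complex, was measured by 2 probe sets. The brighter had 1447, 1125 and 1195 at passage 4, 1443, 1066 and 1518 in regenerated cells, and 1183, 1457 and 1444 at passage 1. The groups overlapped throughout. Its log2 difference was -0.12 at passage 4 against passage 1 (95% interval -0.54 to 0.30, limma adjusted p = 0.8). It was -0.03 in regenerated against passage 1 cells (-0.45 to 0.39, adjusted p = 0.951) and -0.09 at passage 4 against regenerated cells (-0.50 to 0.33, adjusted p = 0.811). The dimmer probe set had between 187 and 274 at passage 4, 265 and 288 in regenerated cells, and 211 and 295 at passage 1. Its differences lay between -0.20 and 0.15, and none was larger than the spread between arrays.

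LMO2, the bridging cofactor, had the largest difference of the 5 genes. Its probe set had 360, 727 and 415 at passage 4, 459, 776 and 1308 in regenerated cells, and 2024, 1714 and 1848 at passage 1. Every passage 4 and every regenerated array was below every passage 1 array, and passage 4 and regenerated arrays overlapped. The means were 501 ± 198 at passage 4, 848 ± 429 in regenerated cells and 1862 ± 156 at passage 1 (SD, n = 3 each). LMO2 fell at passage 4 by 1.92 on the log2 scale, a 3.79-fold difference (SE 0.34, limma adjusted p = 0.0109), and 1.48% of tested probe sets had a larger difference in either direction. Its call stayed past the threshold with each of the 9 arrays left out in turn. With the kind of labelling as a block, so that passage 1 array 1 alone stood for passage 1, the difference was -2.05 (SE 0.50, adjusted p = 0.0795) and did not pass.

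In regenerated cells the LMO2 difference from passage 1 was -1.24 (SE 0.34, limma adjusted p = 0.0601), just short of the threshold. It passed without regenerated array 3, at -1.61 (adjusted p = 0.0282). The 3 regenerated arrays spread 2.85-fold, more than in either other group. In regenerated arrays 1, 2 and 3, where LMO2 stood at 459, 776 and 1308, the 5' minus 3' log2 difference of the pig's own Gapdh transcript was -0.31, -0.78 and -0.99, against -0.18 to 0.00 in the passage 4 arrays and -0.18 to -0.12 in the passage 1 arrays. The same difference for actin was 0.00, -0.42 and -0.19 in these arrays, against 0.95 to 1.33 in the passage 4 arrays and 0.02 to 0.72 in the passage 1 arrays. LMO2 rose over regenerated arrays 1, 2 and 3 as the Gapdh difference fell, while the actin difference was lowest in array 2. The part of either in the LMO2 values was not tested. Passage 4 against regenerated cells gave -0.68 (-1.44 to 0.07, adjusted p = 0.218), or -1.05 without regenerated array 1 (adjusted p = 0.0438). By group means alone, LMO2 was highest at passage 1 and lowest at passage 4, with regenerated cells not apart from passage 4 beyond their spread.

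Leukocytes also express LMO2. Of the 12 leukocyte markers 6 had their highest signal in passage 1 array 3, among them AIF1 at 128 and FCER1G at 80.6, while PTPRC, CD14, LAPTM5 and CORO1A were higher in another array. The sum of the list in passage 1 array 3 was 5709, and LMO2 was 1848, both between the other passage 1 arrays. LAPTM5 made up 5130 of that sum, so the sum says little about the other leukocyte markers. Without passage 1 array 3 the LMO2 difference at passage 4 was -1.93. The fibroblast sum was above every passage 1 array in all 3 passage 4 and all 3 regenerated arrays, where LMO2 was lower. Different genes carried that sum: POSTN made up most of it at passage 4 and FBLN1 in regenerated cells. Mean FBLN1 was below passage 1 at passage 4 (1023 against 1513), and mean POSTN was in regenerated cells (524 against 839). Of 7 tested fibroblast markers 0 passed at passage 4 against passage 1, where 2.71% of all tested probe sets rose and 2.08% fell. Of these 7 markers 6 had a positive difference there, and FBLN1 a negative one. Their median log2 difference was 1.36, against 0.04 for all tested probe sets. The part of leukocytes or of the fibroblast sum in the LMO2 result was not tested.

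FOXO1, the forkhead factor, was measured by 2 probe sets. The brighter had 1091, 885 and 752 at passage 4, 2029, 1670 and 1570 in regenerated cells, and 638, 918 and 919 at passage 1. All 3 regenerated arrays were above all others, and passage 4 and passage 1 arrays overlapped. The means were 909 ± 170 at passage 4, 1757 ± 241 in regenerated cells and 825 ± 162 at passage 1 (SD, n = 3 each). FOXO1 rose in regenerated cells by 1.09 on the log2 scale against passage 1, a 2.12-fold difference (SE 0.21, limma adjusted p = 0.0139). It was lower at passage 4 than in regenerated cells, at -0.95 (SE 0.21, adjusted p = 0.0143). The passage 4 against passage 1 difference was 0.14 (95% interval -0.32 to 0.60, adjusted p = 0.777).

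Some markers of other cell types were also higher in regenerated than in passage 1 cells, and some were not. In regenerated against passage 1 cells 2 of 7 tested fibroblast markers rose and 0 fell, and 1 of 8 smooth muscle markers rose, with 7 of 8 at a positive difference. Over all tested probe sets 2.98% rose and 2.51% fell. Of the 7 fibroblast markers 6 had a positive difference and POSTN a negative one (-2.48, limma adjusted p = 0.188). THY1, a surface protein of fibroblasts, had 489 ± 133 in regenerated cells, against 54.6 ± 30.9 at passage 1 (2.89, adjusted p = 0.00327, and 0.00922 with the block). LUM, for the matrix protein lumican, had 568 ± 499 in regenerated cells, against 12.6 ± 6.18 at passage 1 (3.50, adjusted p = 0.0396, and 0.0742 with the block). Its regenerated arrays stood at 660, 30.1 and 1014. At passage 4 against passage 1 LUM was at 2.43 (limma adjusted p = 0.143). SMTN, for the smooth muscle protein smoothelin, was at 0.89 (adjusted p = 0.0422, and 0.0809 with the block). THY1, FBLN1 and the smooth muscle gene CNN1 were lower at passage 4 than in regenerated cells (adjusted p = 0.0061, 0.0214 and 0.0325) and POSTN was higher (adjusted p = 0.00809). COL3A1, for fibrillar collagen, and DES, for the muscle filament protein desmin, were above the 40th percentile in 0 arrays. The part of these markers in the FOXO1 and ETS2 results was not tested.

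With the kind of labelling as a block the FOXO1 rise was 0.91 and passed (SE 0.21, adjusted p = 0.0309). It was 1.12 without regenerated array 2, with an adjusted p of 0.0531. The difference between passage 4 and regenerated cells was -0.43 with the block (95% interval -1.16 to 0.30, adjusted p = 0.518), and its adjusted p was 0.0525 and 0.0681 without passage 4 arrays 2 or 3, at -0.93 and -0.82. With the block the passage 4 against passage 1 difference was 0.48 (-0.09 to 1.06, adjusted p = 0.473). Passage 1 array 1, the lowest of its group for FOXO1, alone stood for passage 1 there. The dimmer FOXO1 probe set had no difference past the threshold in any comparison, and its passage 4 arrays were above all others. It had 62.6, 55.0 and 64.5 at passage 4, 51.6, 18.6 and 40.7 in regenerated cells, and 29.0, 34.95 and 46.4 at passage 1. These signals are near the 40th percentile of the arrays, which lay between 37.2 and 49.2, and 5 of 9 arrays were above it. Its regenerated against passage 1 difference was -0.04 (-0.71 to 0.64, adjusted p = 0.966), so the 2 probe sets disagree, and the rise rests on the brighter one.

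**Figure D3:**
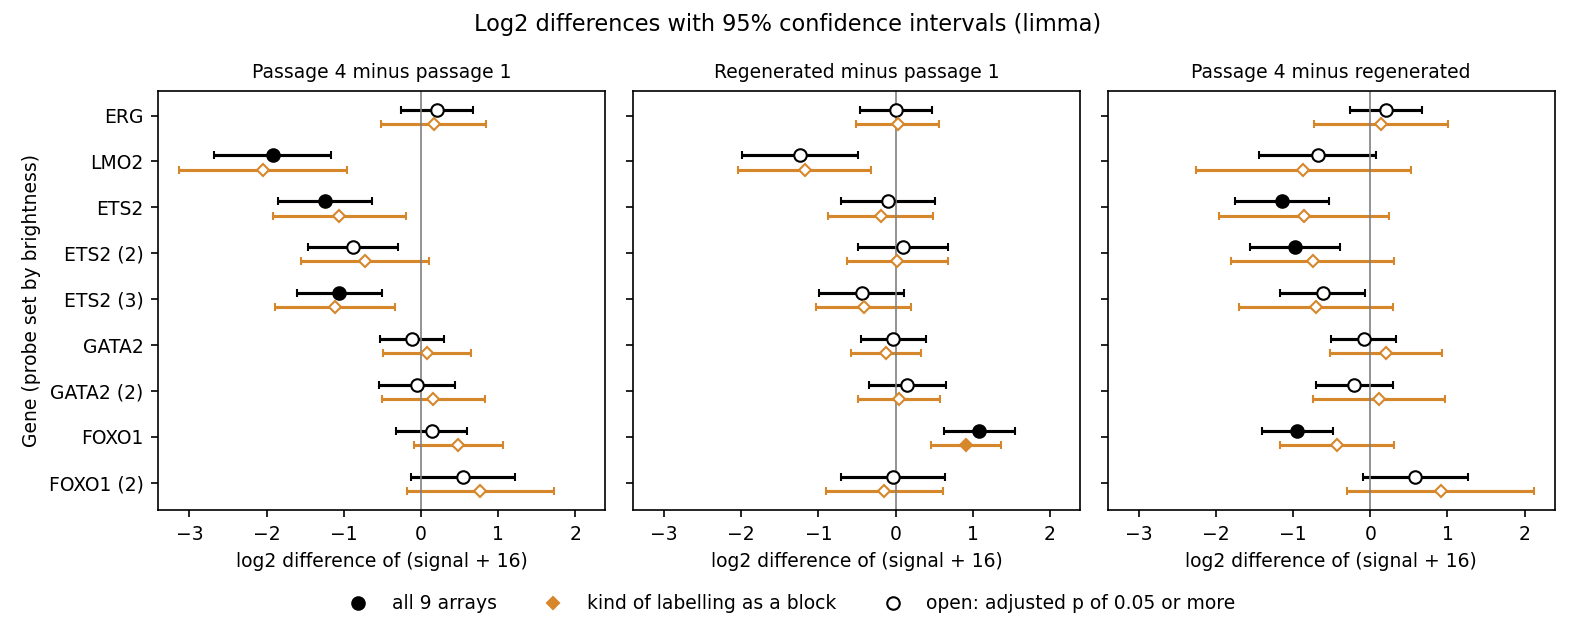
Log2 differences of (signal + 16) with 95% confidence intervals for the 9 probe sets in the 3 comparisons, from the fit of all 9 arrays (black circles) and with the kind of labelling as a block (orange diamonds). Filled symbols have an adjusted p under 0.05: LMO2 at -1.92 and ETS2 at -1.24 and -1.06 on the left, FOXO1 at 1.09 in the middle, which is the one probe set that also passes with the block, and ETS2 and FOXO1 on the right.

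Counted by probe set, 3 of 9 fell at passage 4 against passage 1, where 2.08% of all tested probe sets did, and 5 of 9 had no overlap between the groups, where 24.9% of all tested probe sets had none. In regenerated against passage 1 cells 3 of 9 had no overlap, against 23.0% of tested probe sets, and at passage 4 against regenerated cells 4 of 9, against 36.2%. The median log2 difference of the 5 brightest probe sets was -0.12, -0.03 and -0.68 in these comparisons, while that of all tested probe sets was 0.04, -0.01 and 0.01. Probe sets of 1 gene share their transcript and are not separate evidence.

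The genes closest to LMO2, ETS2 and FOXO1 in pattern were taken as the 3 with the highest Pearson correlation over the 9 arrays among 5492 other genes. These values describe likeness only, because the 9 arrays fall into 3 groups and share their scaling. For LMO2 they were SLC2A3, a glucose transporter gene (r = 0.960), TRMT2B, for a tRNA methyltransferase (0.947), and RUSC1 (0.945). SLC2A3 averaged 1559 ± 356 at passage 4, 2072 ± 738 in regenerated cells and 5296 ± 408 at passage 1. For ETS2 they were IGFBP2, for a growth factor binding protein (0.958), the tetraspanin gene CD82 (0.954) and MMP2, for a matrix protease (0.950). MMP2 averaged 1187 ± 484 at passage 4, 4505 ± 543 in regenerated cells and 4100 ± 990 at passage 1. For FOXO1 they were PMEPA1, a TGF-beta-induced gene (0.952), TNFRSF21, for a death receptor (0.948), and GLT8D2 (0.947). PMEPA1 averaged 207 ± 65.0 at passage 4, 4137 ± 507 in regenerated cells and 239 ± 149 at passage 1, a far wider range than that of FOXO1.

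Partners of the LMO2 complex showed no difference past the threshold. Of 16 listed partners 7 had a probe set and 6 were tested, and 0 passed in any comparison. With 6 genes that count is not apart from the shares of all tested probe sets, which ran from 2.08% to 8.14% per direction. LDB1, the protein that LMO2 ties to the DNA-bound factors, averaged 311 ± 46.5 at passage 4, 379 ± 96.6 in regenerated cells and 468 ± 188 at passage 1. Its log2 differences from passage 1 were -0.49 (adjusted p = 0.446) and -0.24 (adjusted p = 0.702), or 0.21 and -0.59 with the block. The medians of the 6 were -0.13 at passage 4 and 0.09 in regenerated cells against passage 1, and -0.31 at passage 4 against regenerated cells. ID1, ID2 and ID3, which block the bHLH partners of TAL1, were within 0.27 of passage 1 on the log2 scale at passage 4. With the block ID1 was at 0.83, ID2 at -0.72 and ID3 at 0.08, and none passed.

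Calls were also few among other transcription factors of endothelium. Of 27 listed, 15 had a probe set and 13 were tested, and 1 fell and 0 rose at passage 4 against passage 1, with a median of 0.00. That gene was EPAS1, for a hypoxia-inducible factor (-1.44, SE 0.28, adjusted p = 0.0154). Over all tested probe sets 2.08% fell and 2.71% rose there. In regenerated against passage 1 cells 0 of 13 passed (median 0.03), where 2.51% of all tested probe sets fell and 2.98% rose. At passage 4 against regenerated cells 8.14% of all tested probe sets were higher and 4.35% lower. Among the 13 factors 2 were higher and 0 lower there (median 0.01). They were RBPJ, the DNA-binding partner of Notch (1.30, adjusted p = 0.00865), and NFATC1, a factor of endocardial and valve endothelium (0.87, adjusted p = 0.0423). The shear-responsive factor KLF2 was below the filter, at 21.1 ± 6.003 at passage 4, 6.09 ± 1.44 in regenerated cells and 15.8 ± 5.57 at passage 1 (SD, n = 3 each). With the kind of labelling as a block EPAS1, RBPJ and NFATC1 were at -1.71, 0.66 and 1.03 and none passed (adjusted p = 0.0661, 0.414 and 0.263).

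Listed regulators of MEF2 and FOXO factors gave 0 of 9 past the threshold against passage 1, in either group. Over all tested probe sets 2.08% fell and 2.71% rose at passage 4, and 2.51% fell and 2.98% rose in regenerated cells. A count of 0 of 9 is near those shares. AKT1 and AKT2, the kinases that phosphorylate FOXO1, were at log2 differences of 0.33 and 0.65 in regenerated cells against passage 1 (adjusted p = 0.421 and 0.125). The other probe set of AKT1 was at -0.43, in the opposite direction. At passage 4 against regenerated cells 1 of 9 was lower and 1 higher. Over all tested probe sets 4.35% were lower and 8.14% higher there. HDAC5, a class IIa deacetylase that represses MEF2 factors, was the lower one (-1.01, adjusted p = 0.0343). YWHAZ, for a 14-3-3 protein of the kind that binds phosphorylated FOXO1, was higher on its brightest probe set (1.63, adjusted p = 0.00887), while its other probe set was at -0.20. With the block neither passed (adjusted p = 0.709 and 0.46).

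Endothelial targets of ETS, GATA and SOX factors fell in 4 of 22 tested cases at passage 4 and rose in 0, with a median of -0.27, where 2.08% of all tested probe sets fell and 2.71% rose. These were DLL4, a Notch ligand of arterial endothelium (-1.49, adjusted p = 0.0172), the Notch receptor gene NOTCH4 (-1.32, adjusted p = 0.0274), PLAU, for urokinase (-1.12, adjusted p = 0.0286), and NOS3, for endothelial nitric oxide synthase (-0.97, adjusted p = 0.045). NOTCH4 averaged 471 ± 125 at passage 4, 1424 ± 210 in regenerated cells and 1233 ± 456 at passage 1. With the block these 4 were between -1.09 and -0.55 and none passed. CDH5, the best known ERG target, was at -0.08 at passage 4 and 0.06 in regenerated cells (adjusted p = 0.81 and 0.835), and PECAM1 at 0.10 and -0.19 (adjusted p = 0.803 and 0.53). Their dimmer probe sets stood elsewhere, at 0.70 and -1.61 for CDH5 and at 0.28 and -1.14 for PECAM1. The angiopoietin receptor gene TEK was at -0.15 and -0.59 (adjusted p = 0.83 and 0.234).

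In regenerated cells 1 of the 22 targets rose and 2 fell, with a median of -0.20, where 2.98% of all tested probe sets rose and 2.51% fell. ENG, for the TGF-beta co-receptor endoglin, had 4324 ± 1615 in regenerated cells, against 1232 ± 727 at passage 1 (1.92, SE 0.38, adjusted p = 0.0153). CLDN5, for the tight junction protein claudin-5, had 193 ± 30.7 in regenerated cells, against 629 ± 111 at passage 1 (-1.62, SE 0.31, adjusted p = 0.0134). PLAU had 1388 ± 80.2 in regenerated cells, against 3568 ± 1219 at passage 1 (-1.30, adjusted p = 0.0133). ENG, CLDN5 and PLAU passed with the block as well, at 1.44, -1.60 and -1.48 (adjusted p = 0.0207, 0.0287 and 0.0103). At passage 4 against regenerated cells 4.35% of all tested probe sets were lower and 8.14% higher. Among the 22 targets ENG and NOTCH4 were lower there, at -1.63 and -1.59 (adjusted p = 0.0177 and 0.00646), and 0 were higher. With the block these were -0.20 and -0.63 (adjusted p = 0.861 and 0.425), and neither passed.

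Listed FOXO targets moved in both directions. Of 11 tested, 1 rose and 1 fell in each comparison with passage 1, with medians of 0.09 at passage 4 and -0.02 in regenerated cells, beside the same shares of all tested probe sets. GADD45A, a stress-induced growth arrest gene, had 5645 ± 577 in regenerated cells, against 2519 ± 603 at passage 1 (1.18, SE 0.19, adjusted p = 0.00531), and passed with the block (1.35, adjusted p = 0.00339). PDK4, for a kinase that shuts off pyruvate oxidation, had 2615 ± 2118 at passage 4, against 652 ± 156 at passage 1 (1.70, SE 0.43, adjusted p = 0.0452), and did not pass with the block (adjusted p = 0.202). TXNIP, for a thioredoxin inhibitor, fell both at passage 4 (-2.53, adjusted p = 0.00515) and in regenerated cells (-2.02, adjusted p = 0.0135). With the block its difference passed in regenerated cells (-2.49, adjusted p = 0.0023) and not at passage 4 (-1.60, adjusted p = 0.0923). At passage 4 against regenerated cells 2 of the 11 were lower and 0 higher. Over all tested probe sets 4.35% were lower and 8.14% higher there. The 2 were GADD45A and CDKN1B, for the cell cycle inhibitor p27 (-0.86 and -1.44, adjusted p = 0.0139 and 0.00791). CDKN1B had 549 ± 88.4 at passage 4, against 1576 ± 630 in regenerated cells. With the block GADD45A and CDKN1B did not pass there (adjusted p = 0.083 and 0.0989).

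**Figure D4:**
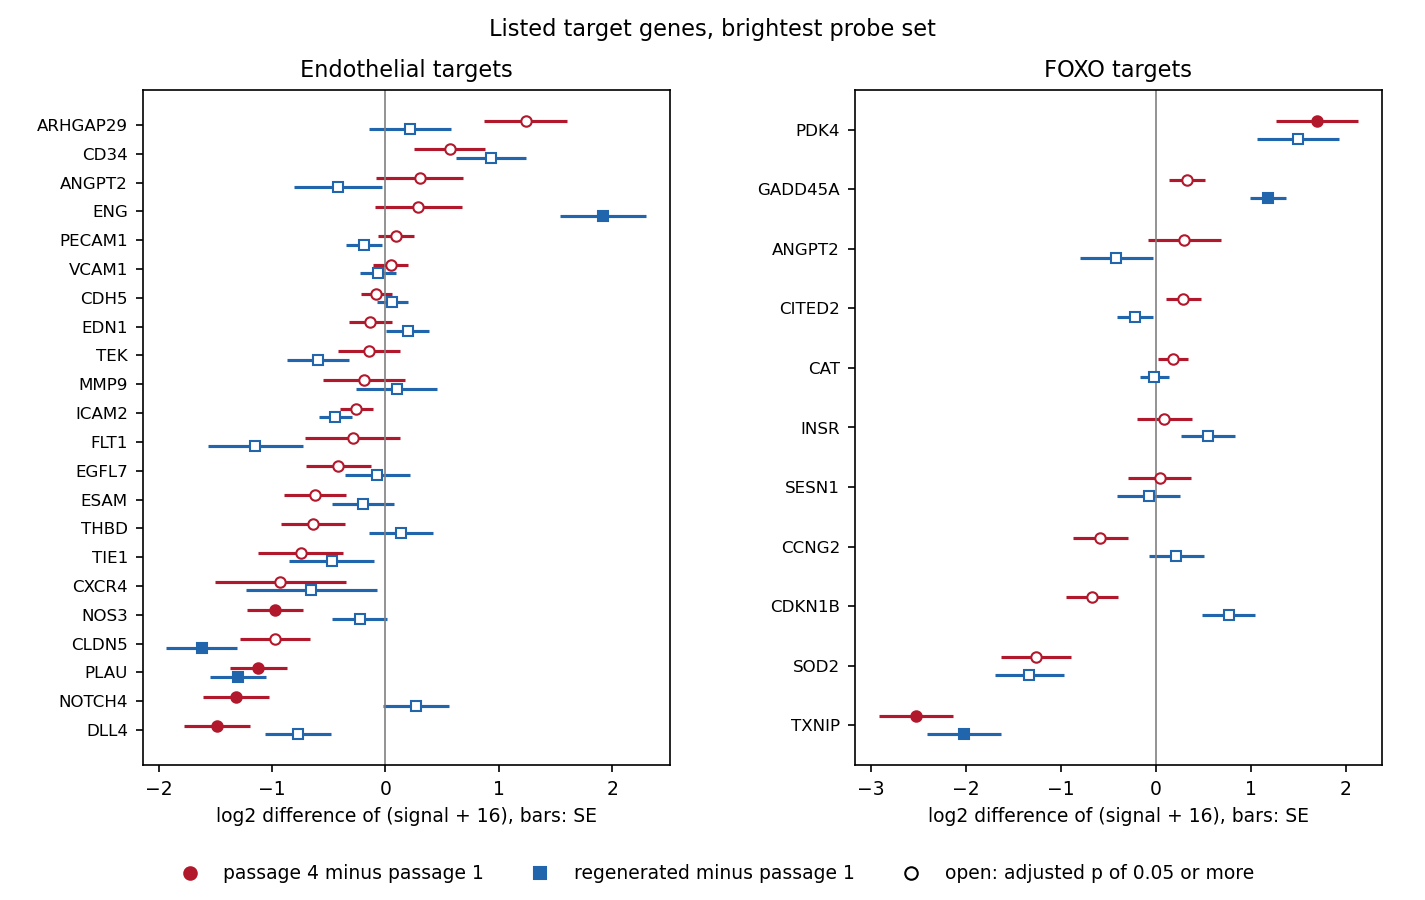
Log2 differences of (signal + 16), with SE, from passage 1 at passage 4 (red circles) and in regenerated cells (blue squares) for the tested endothelial targets (left) and FOXO targets (right), by the brightest probe set of each gene. Filled symbols have an adjusted p under 0.05: ENG stands at 1.92 and CLDN5 at -1.62 in regenerated cells, DLL4 at -1.49 at passage 4, and TXNIP is low in both groups.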

How the data were processed

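Deposited were linear intensities per probe set, which the submitters' processing notes name as MAS5 signals without a version. Total RNA was extracted with a column kit and biotin-labelled cRNA made by the Affymetrix protocol, per the labels. With 2% trimmed from either end, each array averaged 500.1. The deposited intensities were therefore treated as already scaled. Medians ran from 86.5 to 109, and the number of arrays limits the precision.

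The table has 24123 probe sets, 124 of them controls that were dropped. Testing required a signal over the array's own 40th percentile in 3 or more of 9 arrays, met by 15299. Log2(signal + 16) was fitted over all 9 arrays in limma 3.58.1 under R 4.3.3 (lmFit, eBayes with an intensity trend, two-sided, 6 residual and 5.65 prior degrees of freedom). The procedure was tested on simulated data. Probe sets with 1 symbol in the annotation numbered 10099 and were the ones named, 198 had several and 13826 had none. A gene counts by its probe set with the highest mean, and all probe sets of the 5 genes are reported. Per list at most 6 genes past the threshold were named, largest first, plus KLF2, FLI1, LDB1, CDH5, PECAM1, TEK, KDR and NOS3 where measured. FLI1 had no probe set of that symbol. The genes, lists and the division by labelling kind were chosen with earlier results of these data known. Alternatives changed the pseudocount, filter, normalization, trend, samples, block or probe set, or left out 1 array.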

Additional observations from a re-analysis of the deposited data

Results flagged for a closer look

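ETS2 and FOXO1 differed between passage 4 and regenerated cells. This comparison equals the difference between their effects against passage 1, because the shared passage 1 control cancels. All 3 passage 4 arrays were of 1 kind of labelling and all 3 regenerated arrays of the other. Group and labelling kind therefore cannot be told apart in it. On the brightest ETS2 probe set it was -1.14 on the log2 scale (SE 0.28, limma adjusted p = 0.0211), with passage 4 lower in 3 of 3 arrays. On the second ETS2 probe set it was -0.98 (adjusted p = 0.0343), and on the brighter FOXO1 probe set -0.95 (SE 0.21, adjusted p = 0.0143), with passage 4 lower in 3 of 3 arrays each time. With the kind of labelling as a block these were -0.86, -0.74 and -0.43, and none passed.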

How the results depend on the processing

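Over up to 19 alternatives to the fit as reported, the calls of single member probe sets gave 507 values, of which 474 stayed on the same side of the threshold, 31 lost it, 2 gained it and 0 turned direction while called. Most of the 474 belong to probe sets without a call, which had none to lose. Called as reported were 3 of 9 at passage 4 against passage 1, 1 in regenerated against passage 1 cells and 3 at passage 4 against regenerated cells. LMO2 at passage 4 kept its call in 18 of 19, ETS2 on its brightest probe set in 13 against passage 1 and 14 against regenerated cells, and FOXO1 in 18 in regenerated cells and 16 at passage 4 against regenerated cells. ERG and GATA2 passed in 0. The number of member genes past the threshold at passage 4 against passage 1, 2 as reported, was 1 with the replicate number as a replicate block, 0 with the kind of labelling as a block, 1 by the next brightest probe set, and from 1 to 2 with 1 array left out. In regenerated against passage 1 cells the 1 gene became 0 by the next brightest probe set, and from 0 to 2 with 1 array left out. At passage 4 against regenerated cells the 2 genes became 0 with the kind of labelling as a block, 1 by the next brightest probe set, and from 0 to 2 with 1 array left out.

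The number of probe sets past the threshold at passage 4 against passage 1, 733 as reported, was 356 with a stricter filter, which tests fewer, 150 with the kind of labelling as a block, and from 236 to 1381 with 1 array left out. For regenerated against passage 1 cells the 840 became 479 with only those groups in the fit, 554 with the replicate block, and from 277 to 1218 with 1 array left out. For passage 4 against regenerated cells the 1912 became 958 with a stricter filter, 35 with the kind of labelling as a block, and from 884 to 2408 with 1 array left out. Beyond those constructions the cause was not tested. Median centring moved the share of higher calls, giving 299 of 754 in place of 415 of 733 at passage 4 against passage 1, and 1025 of 1959 in place of 1246 of 1912 at passage 4 against regenerated cells. For regenerated against passage 1 cells it gave 406 of 857 in place of 456 of 840, and leaving out regenerated array 1 gave 497 of 1218. The block for labelling kind leaves 1 passage 1 array for passage 4, with a median SE of 0.348 in place of 0.266. For passage 4 against regenerated cells the median SE with the block was 0.444. The replicate numbers did not pair the arrays: same-numbered arrays deviated with r from -0.138 to 0.186, and 2 of 9 arrays matched best with their own number. Apart from ETS2 against passage 1 and the second ETS2 probe set against regenerated cells (adjusted p = 0.0641), the replicate block moved the call of 1 further probe set, the third of ETS2 at passage 4 (adjusted p = 0.0715). Dim probe sets, such as the second of FOXO1, can say little about a change.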
